A study of Mus musculus with 9 samples.

Results

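Elastic fibres, the stretchable polymer of skin, lung and artery, are laid down by fibroblasts and smooth muscle cells from a set of secreted proteins. The results here follow 10 genes of that set in mouse embryonic fibroblasts: the elastin gene Eln, the fibrillins Fbn1 and Fbn2, the fibulins Fbln2, Fbln5, Efemp1 and Efemp2, and the lysyl oxidases Lox, Loxl1 and Loxl2. The members were chosen by gene symbol, and all 10 were found among the 16428 genes of the table. Elastin forms the core of the fibre, and fibrillins form the microfibrils that surround it and hold latent TGF-beta. Fibulins bind elastin and bring it to the microfibrils, and lysyl oxidases, copper enzymes, oxidise lysines of elastin and collagen so that the chains can be cross-linked. Without cross-links the fibre does not hold.

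All 9 libraries came from fibroblasts of genotype CARM1f/f ER-Cre, in which Carm1, the gene of an arginine methyltransferase of histones and coactivators, is floxed and an estrogen-receptor Cre recombinase is present. The 3 WT libraries were from untreated cells, the 3 KO libraries from cells given 4-OHT (4-hydroxytamoxifen, which switches the recombinase on) at 2 uM for 6 days, and the 3 CARM1i libraries from cells given the CARM1 inhibitor TP-064 at 1 uM for 6 days. WT therefore names untreated floxed cells. 4-OHT and the deletion come together in KO and cannot be told apart, and no library is labelled as a vehicle control. Nothing in the labels says that replicates were separate cultures, so a p-value here measures no more than the scatter of these libraries, possibly a technical one.

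Values are normalized read counts, the reads of a gene divided by a size factor for each library, over 28657018 to 35842771 reads per library. Carm1, counted over the whole gene, measured 1079, 1143 and 1091 in WT, 794, 711 and 770 in KO, and 1112, 1072 and 986 in CARM1i. The table does not separate the floxed exons, so these values do not measure the deletion itself. Of 10 fibroblast markers 9 were above a mean of 10; the exception, Lum, had a mean of 5.96. Of 7 smooth muscle markers 5 had a row, without Des and Myocd. Smooth muscle actin, Acta2, averaged 50516 in WT, 44739 in KO and 40563 in CARM1i. In the same order Cnn1 averaged 268, 164 and 210, and Smtn 863, 776 and 818. Lmod1 averaged 3153, 3079 and 3120, and Myh11 117, 152 and 104. Summed macrophage markers ran from 259 to 321 in WT, 304 to 341 in KO and 294 to 329 in CARM1i, with no row in the table for Ptprc or Adgre1. Endothelial markers summed to 390 to 446 in WT, 463 to 525 in KO and 435 to 454 in CARM1i. In WT and KO, Tek averaged 234 and 238, and Egfl7 143 and 183. Cdh5 averaged 24.8 and 37.6, Kdr 20.8 and 33.5, and Pecam1 2.68 and 7.21. The epithelial keratins Krt18 and Krt19 summed to 42.2 to 72.4 in WT and 103 to 145 in KO. Krt18 carried that rise (23.3 to 48.0 in the WT and 91.9 to 126 in the KO libraries). Krt19 had means of 20.9 and 14.7, and Epcam, Cdh1 and Krt8 had no row. CARM1i replicate 3 lay at -0.16 on the third principal component against 0.09 and 0.10 for the other libraries of its group. For the 10 genes, each call that changed on leaving that library out is given without it too.

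**Figure D1:**
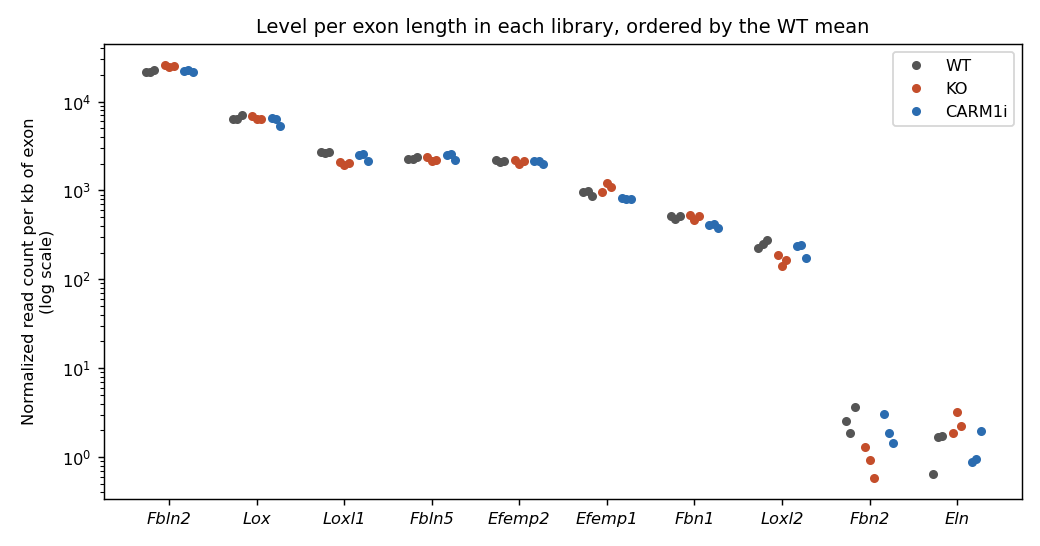
Normalized read count per kb of exon (y axis, log scale) of the 10 genes (x axis, ordered by the WT mean), with 1 point per library, coloured by group. Fbln2 is the highest in every library, and Fbn2 and Eln lie far below the other 8 in all 9.

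Of the 10 genes, 8 were well expressed, while Eln and Fbn2 were barely detected. Eln had 122 reads in all 9 libraries together and ranked 12813 to 15652 of 16428 genes, counted from the highest, and Fbn2 ranked 11885 to 15070. Fbln2 ranked 8 or 9 in each library. Divided by exon length, the WT level was 1.35 ± 0.616 normalized counts per kb for Eln (mean ± SD, n = 3) and 21916 ± 478 for Fbln2, a ratio of 16247. Lox, the founding lysyl oxidase, stood at 6609 ± 430 per kb, which was 4900 times the Eln level.

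The order per kb in WT, from the top, was Fbln2, Lox, Loxl1, Fbln5, Efemp2, Efemp1, Fbn1, Loxl2, Fbn2 and Eln, and all 3 WT libraries had it. Neighbours in that order did not overlap in WT; the closest were Fbln5 (2295 ± 69.5) and Efemp2 (2152 ± 48.4). In all 3 KO libraries Loxl1 came after Fbln5 and Efemp2, at 2031 ± 80.4 per kb, and Eln came before Fbn2. The KO ranges of Fbln5, Efemp2 and Loxl1 overlapped from each to the next, as did the CARM1i ranges of Fbln5, Loxl1 and Efemp2. In CARM1i Fbn2 and Eln overlapped as well.

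**Figure D2:**
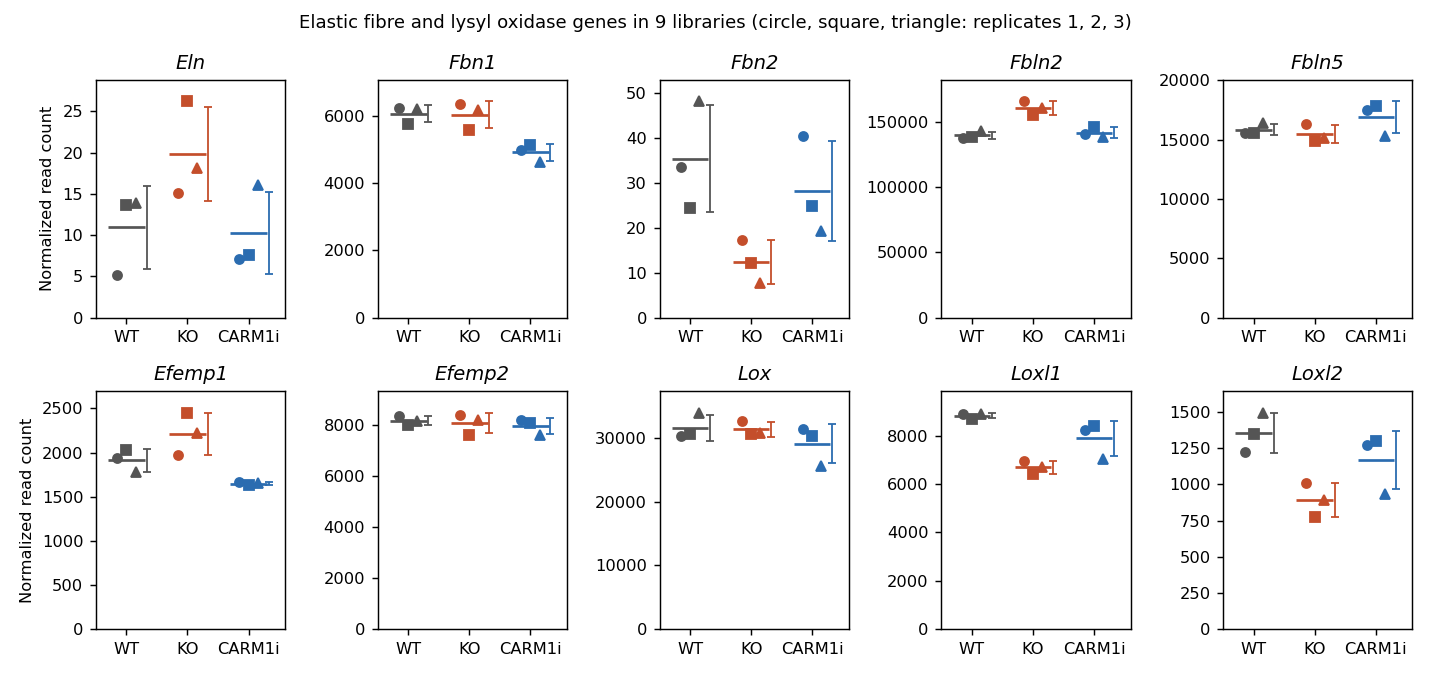
Normalized read count (y axis, from 0, a scale of its own for each gene) of the 10 genes in the WT, KO and CARM1i libraries. Points are libraries, horizontal lines are group means and error bars are 1 SD (n = 3); Loxl1, Loxl2 and Fbn2 are lower in every KO library than in any WT library, and Fbn1 is lower in every CARM1i library.

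The first comparison asked how these genes differ in KO, where 4-OHT and the deletion come together. Of the 10, 2 rose (Efemp1, and Fbln2, whose sign turned under quantile normalization), 3 fell (Loxl1, Loxl2 and Fbn2) and 5 did not pass (Eln, Fbn1, Fbln5, Efemp2 and Lox), under limma with an adjusted p below 0.05. Among all 14560 genes tested 41.9% passed, so a count of 5 in 10 is near the background. The median log2 fold change was -0.01 over the 10 genes and -0.00 over all genes tested. All 10 were above the minimum mean of 10 that a gene needed to be tested. Leaving out WT replicate 3 or KO replicate 2 left 1 rise, that of Fbln2 with the same exception. The groups did not overlap for 5 of the 10, 2 of them higher (Eln and Fbln2) and 3 lower, beside 52.6% of all genes (26.7% higher and 25.9% lower).

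The second comparison asked what the inhibitor does with the gene intact. Of the 10, 3 fell (Fbn1, Loxl1 and Efemp1) and 7 did not pass, where 19.1% of all genes passed and 8.59% fell. Only the fall of Fbn1 was left without WT replicate 1 or WT replicate 2. The median was -0.14 over the 10 and -0.00 over all genes. Groups did not overlap for 3 of the 10, the same genes and all lower, beside 33.4% of all genes (16.7% higher and 16.7% lower). KO and CARM1i share the WT libraries as their control, so the direct comparison of the treated groups was tested as well: 6 of the 10 differed between CARM1i and KO, 3 higher (Fbn2, Loxl1 and Loxl2) and 3 lower (Fbn1, Efemp1 and, except under quantile normalization, Fbln2) in CARM1i, beside 23.6% of all genes. The count of higher genes was 1 without KO replicate 2, CARM1i replicate 1 or CARM1i replicate 2. In that comparison 5 of the 10 did not overlap, beside 36.9% of all genes.

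**Figure D3:**
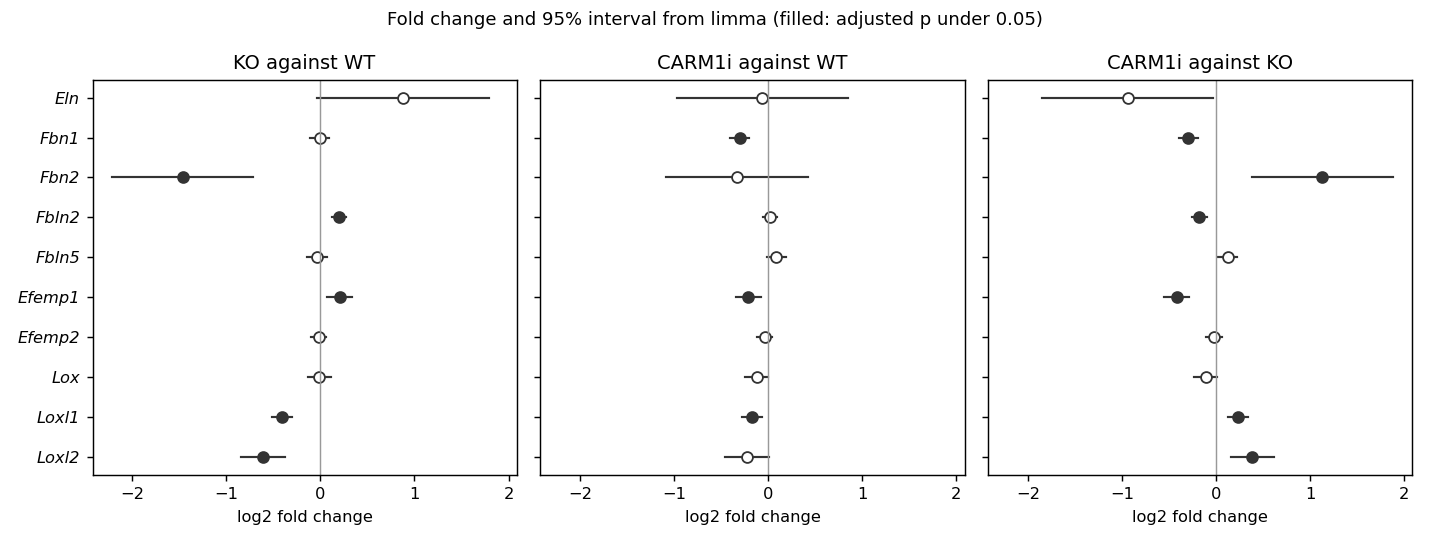
Log2 fold change (x axis) of each gene (y axis) in 3 comparisons, as estimate and 95% interval from limma over 9 libraries; filled points passed at an adjusted p below 0.05. Fbn1 is at -0.01 in KO against WT and at -0.30 in CARM1i against WT, and Efemp1 lies on opposite sides of 0 in the 2 comparisons.

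Elastin, the substrate of the cross-linking enzymes, is considered first. Eln (ENSMUSG00000029675.12; mm10, chromosome 5, 134702593 to 134747323, minus strand) measured 5.17, 13.7 and 13.9 in the WT libraries. The KO libraries measured 15.1, 26.2 and 18.1, and the CARM1i libraries 7.09, 7.62 and 16.0. Every KO library was above every WT library, while CARM1i overlapped both. In reads this was 33 in WT, 59 in KO and 30 in CARM1i, with exact 95% Poisson intervals of 22.7 to 46.3, 44.9 to 76.1 and 20.2 to 42.8 that cover counting error only. KO replicate 1 and WT replicate 2 both had 14 reads, so the gap between them came from the size factors. The KO difference of 0.88 ± 0.43 (log2 fold change ± SE) did not pass (adjusted p = 0.1152), and its 95% interval ran from -0.03 to 1.79. CARM1i differed from WT by -0.06 ± 0.43 (adjusted p = 0.9457, interval -0.97 to 0.85) and from KO by -0.94 ± 0.43 (adjusted p = 0.1331). Without CARM1i replicate 3 these differences were -0.40 (adjusted p = 0.6213) and -1.28 (adjusted p = 0.04725). The 95% intervals of Eln were wide at this depth, and the smallest change that could have been detected was not computed.

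The genes with a mean of at least 100 whose pattern over the 9 libraries lay nearest to that of Eln were Havcr2 (an immune receptor), Tnfrsf1b (a TNF receptor) and Mme (the peptidase neprilysin). Their root mean square differences from Eln were 0.39, 0.40 and 0.41 on the log2 scale, after centring on WT. Havcr2 averaged 107 in WT, 209 in KO and 133 in CARM1i. With so few reads for Eln this likeness is a description of 9 values. Among the other members, the nearest pair was Efemp2 and Lox, at 0.09, both of which stayed below the threshold in every comparison. Loxl1 and Loxl2 were each other's nearest, at 0.17.

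The fibrillins differed from each other. Fbn1 (ENSMUSG00000027204.13; chromosome 2, 125300594 to 125507993, minus strand) encodes fibrillin-1, the main protein of microfibrils after birth. It measured 6240, 5771 and 6207 in WT, 6345, 5598 and 6184 in KO, and 4998, 5126 and 4638 in CARM1i. KO and WT overlapped, and all 3 CARM1i libraries lay below both.

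Fbn1 fell by 19.0% in CARM1i, from 6072 ± 262 to 4921 ± 253; the difference was -0.30 ± 0.05 on the log2 scale (adjusted p = 0.0001616). In KO it was at -0.01 ± 0.05 (adjusted p = 0.9075, interval -0.11 to 0.09). The direct difference between CARM1i and KO was -0.30 ± 0.05 (adjusted p = 0.0001641). Without CARM1i replicate 3 the fall was -0.26 (adjusted p = 0.0002176). Exons of Gm9913 on the opposite strand overlap 20.1% of the exon length of Fbn1. That gene averaged 14.1 in WT, 13.2 in KO and 11.3 in CARM1i, and the strand setting of the counting is not given in the sources used here.

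Fbn2 (ENSMUSG00000024598.8; chromosome 18, 58008623 to 58210487, minus strand) encodes fibrillin-2, the form typical of embryonic microfibrils. It was rare in these embryonic cells, with 33.6, 24.5 and 48.1 in WT, 17.3, 12.1 and 7.63 in KO, and 40.5, 24.8 and 19.2 in CARM1i. All KO libraries lay below all libraries of the other groups. Fbn2 fell by 1.46 ± 0.36 on the log2 scale in KO (adjusted p = 0.002873) and stood at -0.33 ± 0.36 in CARM1i (adjusted p = 0.581, interval -1.09 to 0.42). Without CARM1i replicate 3 the latter was -0.10 (adjusted p = 0.8989).

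CARM1i was higher than KO for Fbn2 by 1.13 ± 0.36 (adjusted p = 0.02834), but that call ended without KO replicate 2 (adjusted p = 0.0642), KO replicate 3 (0.1341), CARM1i replicate 1 (0.1513) or CARM1i replicate 2 (0.05458), and without the intensity trend of the fit (0.08422). Without CARM1i replicate 3 the difference was 1.36 and passed (adjusted p = 0.01051). The Fbn2 values rested on 109 reads in WT, 36 in KO and 84 in CARM1i. In WT, Fbn1 stood at 501 ± 21.6 counts per kb and Fbn2 at 2.68 ± 0.902.

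Of the fibulins, Efemp1 and, except under quantile normalization, Fbln2 were higher in KO, and Fbln5 and Efemp2 passed in no comparison. Fbln2 (ENSMUSG00000064080.12; chromosome 6, 91212455 to 91272540, plus strand) encodes a large fibulin of microfibrils and basement membranes. The WT libraries held 137494, 138234 and 143095, the KO libraries 165741, 154999 and 160497, and the CARM1i libraries 141044, 146187 and 138270. As deposited, KO stood above both other groups with no overlap. Fbln2 rose by 14.9% in KO, a log2 fold change of 0.20 ± 0.04 (adjusted p = 0.000186), although under quantile normalization the value was -0.04 (adjusted p = 0.3257). That alternative gives a gene the value of its rank, and Fbln2 held rank 8 or 9 in every library. CARM1i differed from WT by 0.02 ± 0.04 (adjusted p = 0.7265, interval -0.05 to 0.10) and lay below KO by -0.18 ± 0.04 (adjusted p = 0.001305), a difference that quantile normalization also turned, to 0.04 (adjusted p = 0.3975).

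Efemp1 and Efemp2 are paralogous short fibulins, also called fibulin-3 and fibulin-4, and Efemp2 is the one that tethers lysyl oxidase to elastin. Their promoters are shown because Efemp1 changed in both treated groups while Efemp2 passed in no comparison. The sequences are the 250 bases before a RefSeq start on GRCm38.p6, 5′ to 3′ on the plus strand, chr11:28852955-28853204 for Efemp1 and chr19:5473696-5473945 for Efemp2. Capitals mark GGGCGG (a GC box) and TGANTCA (an AP-1 element) on either strand.
Efemp1: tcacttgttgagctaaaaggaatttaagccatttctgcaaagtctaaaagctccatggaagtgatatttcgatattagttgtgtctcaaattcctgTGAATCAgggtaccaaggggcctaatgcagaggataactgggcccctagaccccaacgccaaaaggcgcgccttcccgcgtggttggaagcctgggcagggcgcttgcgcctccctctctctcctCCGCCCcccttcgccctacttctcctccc
Efemp2: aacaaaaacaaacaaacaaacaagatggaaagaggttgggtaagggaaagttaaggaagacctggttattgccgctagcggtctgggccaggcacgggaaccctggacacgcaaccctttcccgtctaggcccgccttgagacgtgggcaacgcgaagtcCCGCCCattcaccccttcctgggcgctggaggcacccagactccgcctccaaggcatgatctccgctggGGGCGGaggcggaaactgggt
The Efemp1 window held 1 GC box, whose first base lay 29 bases before the start, and 1 AP-1 match 154 bases before it. Efemp2 held 2 GC boxes, at 90 and 21 bases, and no AP-1 match. Neither had TATAAA or CCAAT on either strand. Over 32851 RefSeq promoter windows of this length, 32.7% held GGGCGG, 6.75% TGANTCA, 12.4% TATAAA and 33.9% CCAAT. RefSeq lists 3 windows for Efemp2 and 1 for Efemp1, and only that nearest the 5′ end of the GENCODE gene is shown and described. The matches describe letters in these windows and nothing about binding. RefSeq entries were found for 5 of the 10 genes.

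Efemp1 (ENSMUSG00000020467.15; chromosome 11, 28853204 to 28926743, plus strand) measured 1933, 2027 and 1774 in WT, 1969, 2448 and 2220 in KO, and 1668, 1629 and 1649 in CARM1i. KO replicate 1 lay within the WT range and the other KO libraries above it, and every CARM1i library lay below all others. Efemp1 rose by 15.7% in KO (log2 fold change 0.21 ± 0.06, adjusted p = 0.013) and fell by 13.7% in CARM1i (-0.21 ± 0.06, adjusted p = 0.02514). The direct difference between CARM1i and KO was -0.42 ± 0.06 (adjusted p = 8.661e-05), from 2212 ± 239 in KO to 1649 ± 19.8 in CARM1i.

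The opposite moves of Efemp1 against WT were less secure than that difference. The rise in KO was lost without WT replicate 3 (adjusted p = 0.07358), without KO replicate 2 (0.1043) or without the intensity trend of the fit (0.08798). The fall in CARM1i was lost without WT replicate 1 (0.07737), WT replicate 2 (0.1375), CARM1i replicate 1 (0.0503) or CARM1i replicate 2 (0.06508), and without the trend (0.1483). Without CARM1i replicate 3 it was -0.21 and passed (adjusted p = 0.02981). CARM1i against KO passed under all 20 alternatives, from -0.50 to -0.34.

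Efemp2 (ENSMUSG00000024909.14; chromosome 19, 5473954 to 5482517, plus strand) measured 8336, 7969 and 8153 in WT, 8397, 7611 and 8178 in KO, and 8179, 8052 and 7594 in CARM1i. The 3 groups covered nearly the same range. Its log2 fold changes were -0.02 ± 0.04 in KO (adjusted p = 0.7552, interval -0.10 to 0.06) and -0.04 ± 0.04 in CARM1i (adjusted p = 0.5539, interval -0.12 to 0.04). Exons of Mus81 on the opposite strand overlap 4.57% of the exon length of Efemp2. Mus81 averaged 865 in WT, 952 in KO and 841 in CARM1i.

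Fbln5 (ENSMUSG00000021186.9; chromosome 12, 101746565 to 101819055, minus strand) encodes fibulin-5, which binds elastin, integrins and Loxl1. It measured 15602, 15561 and 16413 in WT, 16369, 14903 and 15177 in KO, and 17500, 17825 and 15338 in CARM1i. CARM1i replicates 1 and 2 were the highest of the 9 libraries, and CARM1i replicate 3 was below all WT libraries. Fbln5 stood at -0.04 ± 0.05 in KO (adjusted p = 0.594) and 0.09 ± 0.05 in CARM1i (adjusted p = 0.2315). Without CARM1i replicate 3 the latter was 0.16 and passed (adjusted p = 0.004082), as did CARM1i against KO at 0.19 (adjusted p = 0.0003912); without KO replicate 1 that difference was 0.16 (adjusted p = 0.03172), and with all libraries it was 0.12 ± 0.05 (adjusted p = 0.07464).

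The lysyl oxidases split as well. Lox did not pass in any comparison, while Loxl1 and Loxl2 were lower in KO. Lox (ENSMUSG00000024529.13; chromosome 18, 52516067 to 52529867, minus strand) measured 30230, 30563 and 33946 in WT, 32627, 30573 and 30783 in KO, and 31414, 30246 and 25635 in CARM1i. KO lay inside the WT range, and CARM1i replicate 3 was the lowest of the 9 libraries. The KO value was -0.01 ± 0.06 (adjusted p = 0.908, interval -0.13 to 0.11). CARM1i stood at -0.12 ± 0.06 (adjusted p = 0.1701), and at -0.03 without replicate 3 (adjusted p = 0.6522).

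Loxl1 (ENSMUSG00000032334.10; chromosome 9, 58287738 to 58313186, minus strand) encodes the lysyl oxidase most closely tied to elastin. The WT libraries measured 8915, 8717 and 8921, the KO libraries 6950, 6421 and 6716, and the CARM1i libraries 8248, 8397 and 7054. No KO library reached the lowest value of either other group. CARM1i lay between WT and KO. Loxl1 fell by 24.3% in KO, from 8851 ± 116 to 6696 ± 265 (log2 fold change -0.40 ± 0.05, adjusted p = 3.402e-06), and passed under all 20 alternatives, from -0.44 to -0.37.

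In CARM1i Loxl1 fell by 10.7% (-0.17 ± 0.05, adjusted p = 0.02481). Without CARM1i replicate 3 that was -0.09 and did not pass (adjusted p = 0.0798), nor did it without any 1 of the WT libraries (adjusted p = 0.05535 to 0.07394) or without the intensity trend (0.1633). The direct difference, CARM1i above KO by 0.23 ± 0.05, passed (adjusted p = 0.002082), and was 0.31 without CARM1i replicate 3 (adjusted p = 3.583e-07). It did not pass without the trend (adjusted p = 0.05659).

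Loxl2 (ENSMUSG00000034205.16; chromosome 14, 69609068 to 69695834, plus strand) encodes a lysyl oxidase with scavenger receptor domains that acts on basement membrane collagen. It measured 1224, 1351 and 1497 in WT, 1011, 772 and 890 in KO, and 1276, 1299 and 935 in CARM1i. All KO libraries were under all WT libraries, CARM1i replicates 1 and 2 lay in the WT range and replicate 3 in the KO range. Loxl2 fell by 34.3% in KO (log2 fold change -0.61 ± 0.11, adjusted p = 0.0001881), and from -0.71 to -0.51 under the 20 alternatives, all of which passed. CARM1i stood at -0.23 ± 0.11 against WT (adjusted p = 0.1723), or -0.07 without replicate 3 (adjusted p = 0.6342).

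CARM1i was above KO for Loxl2 by 0.39 ± 0.11 (adjusted p = 0.01538), and by 0.54 without CARM1i replicate 3 (adjusted p = 4.343e-05). That difference did not pass without KO replicate 2 (adjusted p = 0.1063), CARM1i replicate 1 (0.08376) or CARM1i replicate 2 (0.08449), nor under DESeq2 (0.06151) or without the intensity trend (0.137).

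**Figure D4:**
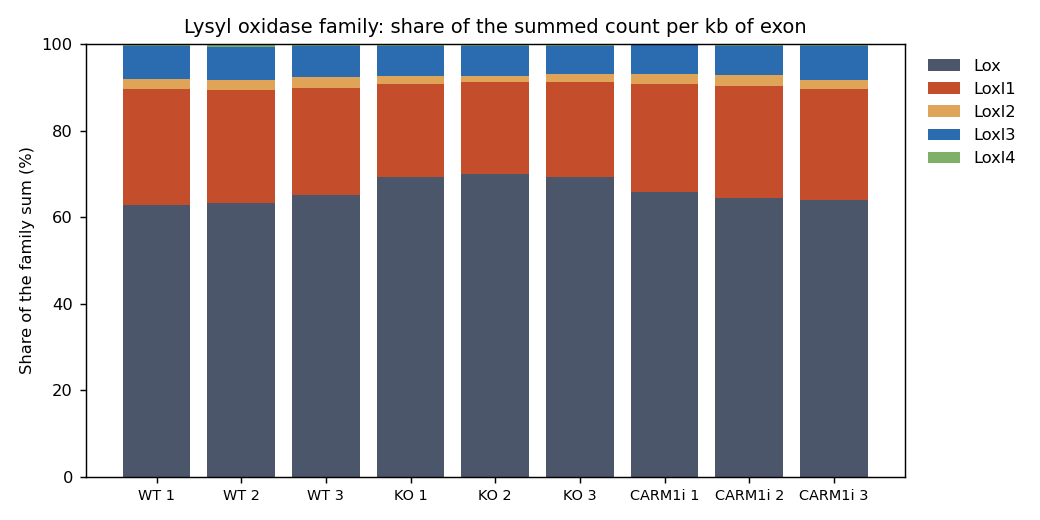
Share (y axis, percent) of each lysyl oxidase in the family's summed normalized count per kb of exon, as a stacked bar for each library (x axis). Lox takes 69.3 to 69.9% in the KO libraries and 62.8 to 65.7% in the other 6.

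With Loxl3 and Loxl4 added, the family's sum per kb was 10373 ± 474 in WT, 9431 ± 366 in KO and 9405 ± 889 in CARM1i. CARM1i replicates 1 and 2 held 10004 and 9829, below every WT library and near or above the highest KO library (9847), and replicate 3 held 8384, the lowest of the 9. Lox made up 63.7 ± 1.21% of it in WT, 69.5 ± 0.313% in KO and 64.7 ± 0.903% in CARM1i. Loxl1 made up 25.9 ± 1.05%, 21.5 ± 0.344% and 25.5 ± 0.454%. The KO libraries therefore lay apart in both shares, without overlap with the other 6. Loxl3, with 3546 ± 34.6 counts in WT, fell by 0.29 ± 0.04 on the log2 scale in KO (adjusted p = 7.309e-06) and by 0.21 ± 0.04 in CARM1i (adjusted p = 0.0007369). Shares within a sum show unequal change, not which member moved.

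Genes that work with these 10 were taken from 5 lists, whose counts stand against 21.4% of all genes tested that rose and 20.5% that fell in KO, and 10.5% and 8.59% in CARM1i. Fibrillar collagens, the other substrate of lysyl oxidases, fell in 6 of 8 tested cases in KO (median -0.58) and in 6 of 8 in CARM1i (median -0.43). Without the intensity trend 3 fell in CARM1i. Col5a1, which starts fibril assembly, went from 14616 ± 354 in WT to 10157 ± 506 in KO and 10887 ± 1070 in CARM1i. Col5a2 went from 43706 ± 301 in WT to 28257 ± 2141 in KO and 36331 ± 3303 in CARM1i. Col3a1 fell by 1.27 ± 0.06 in KO and 0.48 ± 0.06 in CARM1i, and was higher in CARM1i than in KO by 0.79 ± 0.06 (adjusted p = 4.163e-08). Of these collagens 3 (Col1a1, Col1a2 and Col3a1) are also among the 10 fibroblast markers. The summed level of those markers was 256509 to 265946 in WT, 190081 to 201826 in KO and 223597 to 248078 in CARM1i. High genes, these collagens among them, weigh most in that sum. Of 9 markers tested, 7 fell and 1 rose in KO, and 4 fell and 1 rose in CARM1i. Thy1 rose in both, from 13960 ± 115 in WT to 15871 ± 459 in KO and 16896 ± 368 in CARM1i. The part of the markers in the collagen result was not tested. In bulk RNA fewer cells of a type and less RNA per cell cannot be told apart.

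Of 14 tested microfibril and assembly genes, 2 rose and 7 fell in KO (median -0.19; all genes 21.4% and 20.5%), and 4 rose and 2 fell in CARM1i (median 0.10; all genes 10.5% and 8.59%). Without WT replicate 3 the rises in KO numbered 5, and without WT replicate 2, WT replicate 3 or CARM1i replicate 3 there was 1 fall in CARM1i. Adamtsl5, of a family of microfibril-binding proteins, went from 833 ± 34.5 to 1605 ± 149 in KO and 1292 ± 25.5 in CARM1i, higher in both (adjusted p = 5.485e-10 and 8.829e-07). Emilin2, an elastin-microfibril interface protein, rose by 0.35 ± 0.03 and 0.41 ± 0.03. Fbln1, a fibulin that joins elastic fibres, fell by 0.77 ± 0.07 in KO and stood at -0.20 ± 0.07 in CARM1i (adjusted p = 0.07307).

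Ltbp1, which stores latent TGF-beta on microfibrils, had 42727 ± 175 counts in WT, 39501 ± 746 in KO and 46282 ± 283 in CARM1i. It fell in KO (adjusted p = 0.003009) and rose in CARM1i (adjusted p = 0.006674), and the direct difference was 0.23 ± 0.03 (adjusted p = 8.77e-06). Thsd4, which promotes fibrillin-1 assembly, fell from 394 ± 64.4 to 249 ± 32.9 in KO and was 453 ± 28.6 in CARM1i, a direct difference of 0.87 ± 0.11 (adjusted p = 1.579e-05).

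Among 10 other lysyl oxidase and activation genes, 4 rose and 2 fell in KO (median 0.08), where 41.9% of all genes passed, and 3 rose and 3 fell in CARM1i (median 0.00), where 19.1% did. Tll1, of the protease family that cleaves the lysyl oxidase propeptide, fell by 1.12 ± 0.06 in KO (3585 ± 243 to 1655 ± 135) and by 0.83 ± 0.06 in CARM1i (to 2020 ± 158). Atp7a, which loads lysyl oxidases with copper, rose by 0.36 ± 0.05 and 0.23 ± 0.05. Fn1, the fibronectin gene, rose from 122653 ± 449 to 161679 ± 3596 in KO and 133909 ± 3155 in CARM1i. Postn, which helps to activate lysyl oxidases, rose by 0.82 ± 0.06 in KO, stood at 0.03 ± 0.06 in CARM1i (adjusted p = 0.7894), and differed between CARM1i and KO by -0.78 ± 0.06 (adjusted p = 7.694e-08).

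Of 10 tested genes for elastin-degrading enzymes and their inhibitors, 8 rose and 2 fell in KO (median 0.31), beside 21.4% and 20.5% of all genes. In CARM1i 5 rose and 2 fell (median 0.17), beside 10.5% and 8.59%. The cathepsins Ctsl and Ctsk rose by 0.64 ± 0.04 and 0.73 ± 0.04 in KO, and by 0.23 ± 0.04 and 0.44 ± 0.04 in CARM1i. The falls were those of Mmp9, a gelatinase that also cleaves elastin, by 1.73 ± 0.16 in KO (175 ± 14.0 to 52.6 ± 8.13) and 0.87 ± 0.16 in CARM1i (to 95.4 ± 10.05), and of the inhibitor Timp3, by 0.57 ± 0.13 and 0.51 ± 0.13. The inhibitor Timp2 rose, from 27006 ± 1313 to 39695 ± 764 in KO and 30692 ± 565 in CARM1i. Mmp14, a membrane-bound protease, went from 10907 ± 267 to 14334 ± 36.9 in KO (adjusted p = 5.439e-09) and 12636 ± 287 in CARM1i (adjusted p = 5.234e-05). CARM1i lay below KO for Mmp14 by -0.18 ± 0.03 (adjusted p = 0.0001783). Mmp12, the macrophage elastase, named after its values were seen, measured 25.8, 21.5 and 23.5 in WT, 80.0, 91.7 and 97.3 in KO, and from 29.4 to 35.3 in CARM1i. It rose by 1.88 ± 0.21 in KO (adjusted p = 7.649e-07). Of 4 macrophage markers tested in KO, Cd68 rose (42.5 ± 12.4 in WT, 86.0 ± 27.9 in KO, adjusted p = 0.007039) and Cd14 fell (147 ± 17.7 to 109 ± 17.8, adjusted p = 0.02141). Csf1r (61.1 ± 14.7 and 69.4 ± 18.7) and Mrc1 (38.9 ± 4.56 and 48.4 ± 5.79) did not pass, at adjusted p = 0.5521 and 0.279. Their part in the Mmp12 result was not tested.

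Of 9 tested TGF-beta ligands and activating integrins and related genes, 2 rose and 3 fell in KO (median -0.12), near the 21.4% and 20.5% of all genes. In CARM1i 2 rose and 1 fell (median -0.03), beside 10.5% and 8.59%. The counts of falls in KO ran from 1 to 6 when 1 library was left out, with 1 fall without KO replicate 2 or KO replicate 3 and 6 without CARM1i replicate 3. In CARM1i neither rise passed without WT replicate 1, WT replicate 2 or CARM1i replicate 3, and 1 gene rose without CARM1i replicate 1 or CARM1i replicate 2. The fall did not pass without any 1 of WT replicates 1 and 2 and CARM1i replicates 1 and 2. Tgfb1 rose from 239 ± 19.4 to 343 ± 46.8 in KO and 302 ± 13.9 in CARM1i, and the beta-3 integrin gene Itgb3 from 604 ± 28.2 to 771 ± 30.9 and 688 ± 21.2. The falls in KO were those of Itgb8 (52.8 ± 7.40 to 29.8 ± 4.69), Itgav (21224 ± 945 to 19582 ± 923) and Thbs1 (566062 ± 25124 to 498572 ± 30682). Itgav was also the fall in CARM1i. Tgfb2 and Tgfb3 did not pass against WT in either group.

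**Figure D5:**
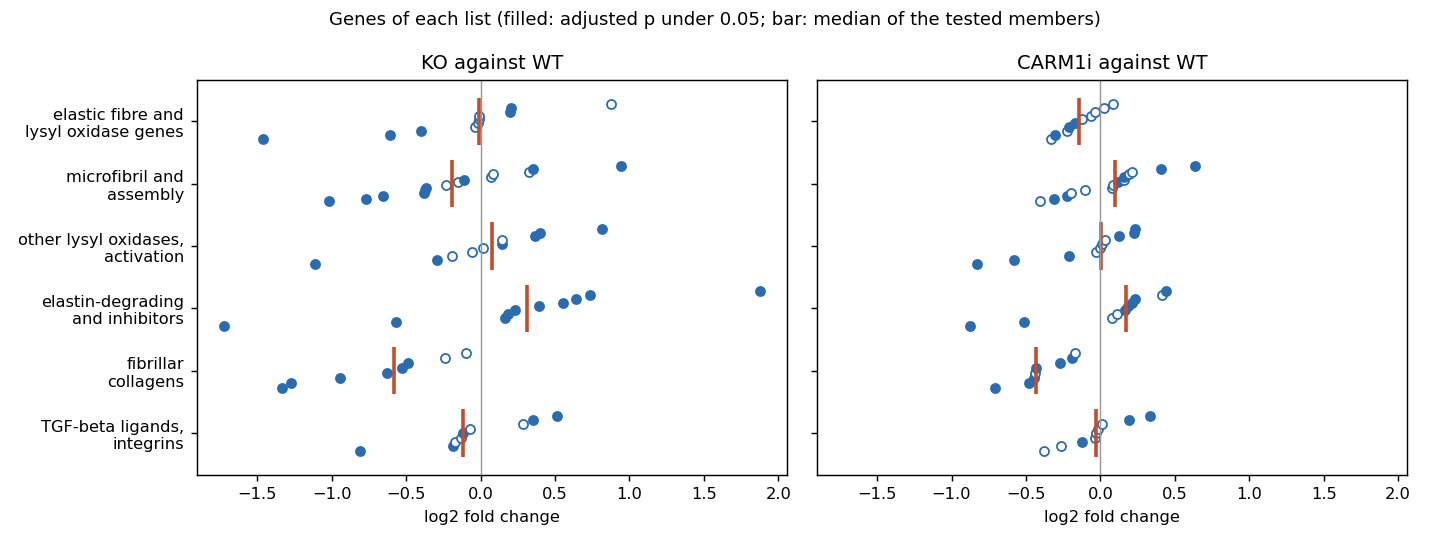
Log2 fold change (x axis) of the 10 genes and of the tested genes of 5 related lists (y axis), with 1 point per gene, filled where the adjusted p was below 0.05, and a bar at each list's median. Fibrillar collagens have medians of -0.58 in KO and -0.43 in CARM1i against WT, while the 10 genes lie on both sides of 0 in KO.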

How the data were processed

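RNA of 9 libraries of mouse embryonic fibroblasts was made into stranded poly(A) libraries, per the labels' protocols. Build mm10 and the tools TopHat2 2.0.10, HTSeq 0.6.0 and DESeq 1.18.0 stand in the submitters' processing notes. Annotation release and strand setting: not given in the sources used here. For 16428 genes the authors deposited a signal per gene and library, read counts divided by size factors. In each library 100% of values were whole multiples of 1 step (tolerance 1e-06 of a read), which gave back the reads. Of the gene IDs, 16413 matched GENCODE M21 (same build) without version, for names, positions and the union of exons.

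Values entered limma 3.58.1 (R 4.3.3), its variance prior following intensity, as log2(value + 1), a scale that understates fold changes of low genes. A mean of at least 10 over the 9 libraries was required, and 14560 genes had it. A single model held all 3 groups, with Benjamini-Hochberg adjustment over all genes tested and a threshold of 0.05. Alternatives included edgeR 4.0.16 and DESeq2 1.42.0 on recovered reads. On simulated counts over 14579 genes, KO against WT called 73% of the genes given a 1.5-fold change, and at 2-fold 85.9%. The simulated comparison gave 163 calls in all, against 6100 in the data, so its adjusted threshold was stricter. Those rates are averages over all levels and were not computed for the 10 genes. Replicate pairs differed by a chi-square of 2.47 to 8.47 per gene, so none was counted as a copy. All 10 genes are named, with the 3 genes of smallest adjusted p per related list and comparison, not all of which are described. The members and lists were chosen with earlier results of these data known. Each value rests on 3 libraries a group and on its reads.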

Additional observations from a re-analysis of the deposited data

How the results depend on the processing

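Each comparison had 198 fold changes of the 10 genes under the alternatives. The call (the side of the threshold and, for genes past it, the direction) was kept by 194 for KO against WT, by 187 for the inhibitor against WT and by 183 for the inhibitor against KO. Fbln2 reversed under quantile normalization, to -0.037 in KO against WT and 0.037 in CARM1i against KO. Its value there follows its rank, which was 8 in every WT and CARM1i library and 9 in KO replicates 2 and 3. For the other changes the cause was not tested. Among the 10 genes, the rises in KO numbered 1 under quantile normalization, 1 without the intensity trend and 1 to 2 on leaving out a library. In CARM1i against WT, falls numbered 1 without the trend and 1 to 3 on leaving out a library, and rises 0 to 1. In CARM1i against KO, higher genes numbered 0 without the trend (3 with it) and 1 to 4 on leaving out a library.

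Among all genes in CARM1i against WT, 1533 rose and 1251 fell, 1018 and 779 without the trend, and falls ran from 806 (without WT replicate 2) to 1207 on leaving out a library. In CARM1i against KO, 12.1% of all genes tested were higher and 11.5% lower. Higher and lower genes there numbered 5 and 1 of 14 microfibril genes, and 1 and 6 of 10 elastin-degrading genes. They numbered 1 and 3 of 10 other lysyl oxidase genes, 5 and 0 of 8 collagens, and 0 and 0 of 9 TGF-beta genes. For microfibril genes, rises in KO ran from 2 to 5 on leaving out a library and falls in CARM1i from 1 to 3 (0 without the trend). CARM1i exceeded KO for 3 to 6 of them on leaving out a library (3 without the trend). Elastin-degrading genes that fell in CARM1i numbered 1 under DESeq2 and 1 without the trend, and those above KO 1 to 2 on leaving out a library. Collagens that fell in CARM1i numbered 3 without the trend. Other lysyl oxidase genes above KO in CARM1i numbered 0 without the trend and 1 to 2 on leaving out a library. TGF-beta genes that fell in KO numbered 5 after rescaling to a common total, 1 without the trend, 6 with only the compared groups and 1 to 6 on leaving out a library. In CARM1i against WT their rises numbered 1 under DESeq2, 1 without the trend, 1 with only the compared groups and 0 to 2 on leaving out a library, and falls 0 without the trend and 0 to 1. In CARM1i against KO higher ones numbered 1 without a filter, 1 after rescaling, 1 under edgeR and 0 to 3 on leaving out a library, and lower ones 1 under quantile normalization and 0 to 1.

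Same-numbered libraries did not deviate together (correlations of -0.087 to 0.0268), and 1 of 9 was closest to its own number. A lack of shared deviation in expression cannot tell whether same-numbered libraries were paired. With the replicate block 2983 genes rose and 2882 fell in KO against WT, and 2 and 3 of the 10 genes, as without it. At a mean of at least 50, Eln and Fbn2 were not tested. Their few reads limit both.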
